A study of Rattus norvegicus with 12 samples.

Results

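Homeobox and regional patterning factors are transcription factors, and many of them mark where in the nervous system a cell comes from. They were examined in RNA from brain samples of 3 groups of 4 libraries: Sham, a control group; AD, a model of Alzheimer's disease; and AD-HFD, the same model with a high-fat diet. Libraries are named by group and number, as in AD-3. The members were the rows of the deposited count table whose symbol belongs to the Dlx, Emx, Lhx, Nkx, Otx, Irx, Pax, Hox, Pitx, Zic or Barhl families or to that of Six2 and Six3, and whose counts over the 12 libraries sum to at least 50. Of 31177 rows, 97 had such a symbol and 49 reached the minimum. The count minimum used measured values, so membership itself is no result. None of the 49 members has the symbol of an antisense or opposite-strand transcript. Just inside it were Pax4 with 54 counts, Irx4 with 56 and Pitx1 with 59, and just outside were Nkx1-2 with 40, Nkx2-4 with 37, Pax2 with 34 and Six6 with 31. Of 34 rows of Hox genes, Hoxd1 alone reached the minimum, and 22 of the 48 rows under it had no counts.

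The titles call the animals mice. The organism is recorded as Rattus norvegicus, however, and the table holds rat Ensembl gene identifiers, so the samples are treated here as rat. How the model was made, the strain, age and sex, the length of the diet and the brain region are not given in the sources used here. No group on the diet without the model was analysed here. Whether the 4 libraries of a group are 4 animals is not stated, so p-values refer only to the spread among these samples, which may be technical. Total counts ran from 26668974 to 35351792 per library. The libraries held brain transcripts, with 7 oligodendrocyte markers summing to 6632 to 47522 CPM (counts relative to the library's total, scaled) over the 12 libraries, but they did not share 1 regional make-up. Markers of cortical excitatory neurons (7 genes) summed to 2385 to 3231 CPM in Sham, to 2053 CPM in AD-3 and 2353 CPM in AD-HFD-3, and to 157 to 815 CPM in the other 6 libraries. Thalamus markers (8 genes) summed to 2008, 1422 and 649 CPM in AD-1, AD-4 and AD-2, and to 74.8 to 154 CPM in the other 9. In bulk tissue, fewer cells of a type and less RNA per cell cannot be told apart.

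In the embryo these factors divide the neural tube into territories. Emx and Lhx2 act in the dorsal telencephalon, which gives rise to the cortex. Dlx and Lhx6 act in the ventral telencephalon, which supplies inhibitory neurons, and Irx, Barhl, Pitx and several Lhx genes act in diencephalon and midbrain. Hox genes act in hindbrain and spinal cord. Many stay on in mature neurons of the same territory. The members are described below by these roles. CPM are not corrected for gene length, so levels are compared between libraries for a gene and not between genes.

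Several members sit next to each other in the genome. In RefSeq's rat annotation (GRCr8) 10 pairs of consecutive protein-coding genes consist of members, among them Irx4 with Irx2, Irx2 with Irx1, Irx6 with Irx5, Irx5 with Irx3, Dlx1 with Dlx2, Zic1 with Zic4, Zic5 with Zic2, Nkx2-2 with Pax1, and Six2 with Six3. RefSeq promoter sequences matched 32 of the 49 members by symbol. The 250 bases before the annotated start are shown for Irx1 and Irx2, neighbours that were high in the same libraries. They are also shown for Lhx2, which was lower in both AD groups, and for Six2 and Six3, neighbours highest in different libraries. These windows lie at chr1:33122872-33123121 (+ strand), chr1:32494931-32495180 (- strand), chr3:42535494-42535743 (+ strand), chr6:14727808-14728057 (+ strand) and chr6:14796257-14796506 (- strand). Capitals mark the CG dinucleotides, the sites at which vertebrate DNA is methylated.
Irx1: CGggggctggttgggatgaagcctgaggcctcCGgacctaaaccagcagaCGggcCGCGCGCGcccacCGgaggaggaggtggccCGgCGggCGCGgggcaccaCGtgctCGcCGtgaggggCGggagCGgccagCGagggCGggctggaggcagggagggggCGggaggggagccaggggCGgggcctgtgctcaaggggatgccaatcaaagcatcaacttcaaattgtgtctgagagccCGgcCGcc
Irx2: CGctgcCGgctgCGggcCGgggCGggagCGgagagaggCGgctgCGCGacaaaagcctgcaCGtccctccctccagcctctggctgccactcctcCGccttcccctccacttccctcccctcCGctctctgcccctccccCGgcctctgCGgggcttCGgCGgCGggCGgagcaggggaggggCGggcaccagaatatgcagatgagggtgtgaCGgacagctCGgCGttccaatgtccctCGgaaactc
Lhx2: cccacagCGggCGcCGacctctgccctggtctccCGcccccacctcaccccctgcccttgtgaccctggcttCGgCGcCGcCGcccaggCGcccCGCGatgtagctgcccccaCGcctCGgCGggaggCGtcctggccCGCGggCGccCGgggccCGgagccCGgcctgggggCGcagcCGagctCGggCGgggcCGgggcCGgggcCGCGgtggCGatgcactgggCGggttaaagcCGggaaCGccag
Six2: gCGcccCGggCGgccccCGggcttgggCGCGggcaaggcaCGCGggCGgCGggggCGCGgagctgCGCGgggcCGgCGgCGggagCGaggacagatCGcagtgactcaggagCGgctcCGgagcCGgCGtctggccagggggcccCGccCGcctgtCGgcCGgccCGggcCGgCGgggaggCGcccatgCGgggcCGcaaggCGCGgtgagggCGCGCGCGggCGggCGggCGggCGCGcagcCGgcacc
Six3: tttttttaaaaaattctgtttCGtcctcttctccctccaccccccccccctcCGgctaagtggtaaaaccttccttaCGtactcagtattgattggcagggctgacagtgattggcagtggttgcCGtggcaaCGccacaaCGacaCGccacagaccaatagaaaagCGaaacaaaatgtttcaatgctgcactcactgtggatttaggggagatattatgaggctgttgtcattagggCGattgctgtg
These windows hold 23, 23, 33, 45 and 9 CG in this order, against a median of 15 over the 33 windows of members and of 5 over 33469 RefSeq promoter windows of that length, of which 92.2% hold at least 1 CG. A search for TAAT, the core that many homeodomains bind, on either strand and with overlaps allowed, found a match in 12 of the 33 member windows and in 57.0% of the 33469. Six3 had 2 matches and the other 4 windows shown had none.

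Of the 49 members, 36 had enough counts to be tested among 18850 genes, and 12 were called in at least 1 of 3 comparisons (edgeR's quasi-likelihood test, Benjamini-Hochberg adjusted p under 0.05 over all genes tested). The comparisons share groups and are not independent. AD-2 was the library with the highest level for 21 of the 49 members. Of the 36 tested members it was the highest for 9, and of all genes tested for 10.2%. AD-HFD-4, the highest library for 24.8% of all genes tested, was the highest for 5 of the 36. For 21 members more than 50% of the summed CPM came from AD-1, AD-4 and AD-2, and 16 members have under 50 counts outside the AD group, so they are members only through it. The heat map of all members sets out these levels.

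**Figure D1:**
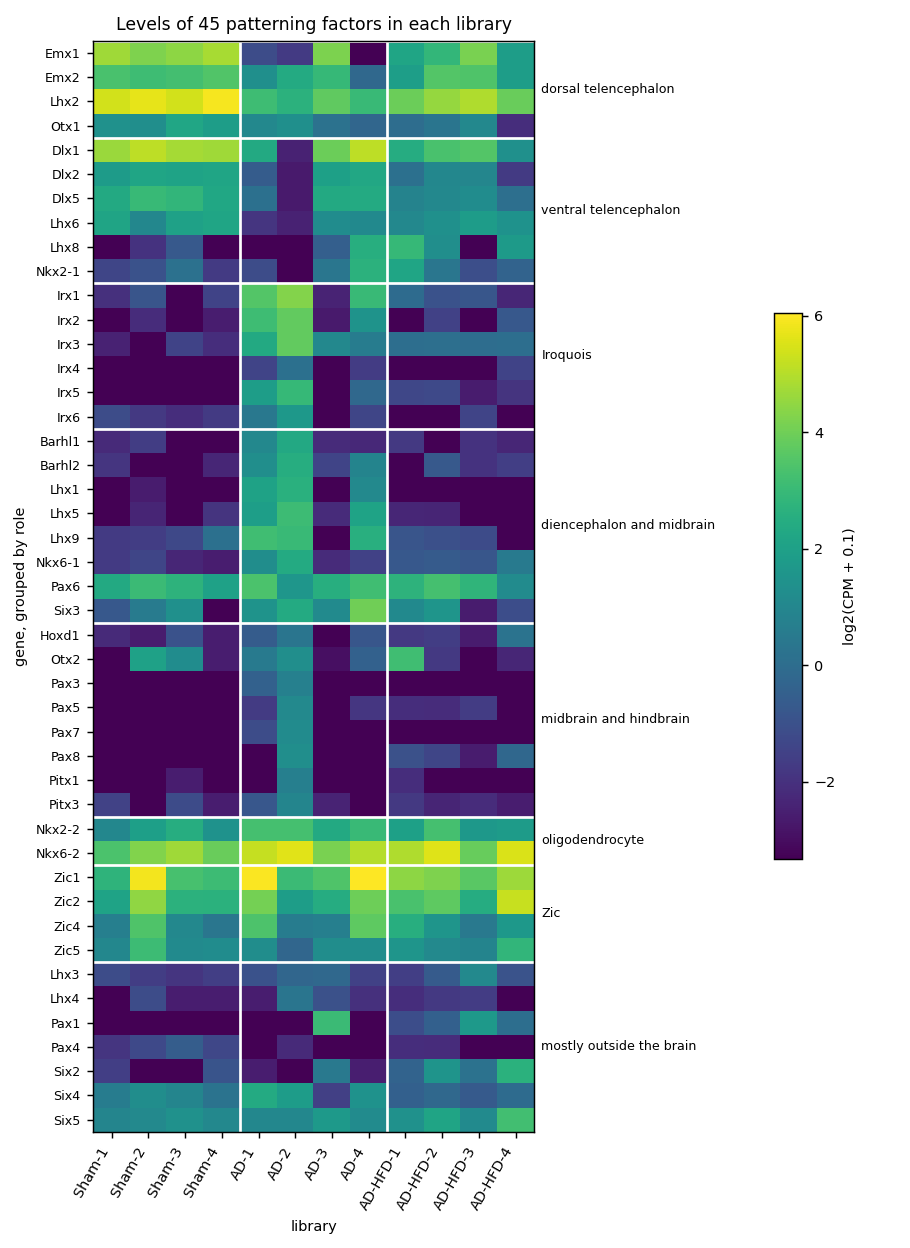
Level of 45 of the 49 members (rows, grouped by role) in each of the 12 libraries (columns), as log2(CPM + 0.1). Emx1 and Lhx2 are bright in the 4 Sham libraries, Irx1, Irx2 and Irx5 in AD-1, AD-4 and AD-2, and Pax7 and Pitx1 mostly in AD-2.

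AD was compared with Sham to ask what the model changes. By edgeR's quasi-likelihood test 8 of the 36 tested members were called, 7 higher and 1 lower, against 6.23% of all genes tested (3.07% higher and 3.16% lower). Among the risers were Irx1, Irx2, Irx3, Irx5, Barhl2 and Lhx9, and the gene that fell was Lhx2. Of the 7 risers, 4 (among them Barhl2, Irx2 and Irx5) have under 50 counts outside the AD group, so their count is no support for a rise of the whole set. For the 6 named here the share of the summed CPM that came from AD-1, AD-4 and AD-2 ran from 76.4% for Irx3 to 96.1% for Irx2. Among tested members, Barhl2 and Irx3 were higher in every AD library than in any Sham library, and Emx1, Emx2 and Lhx2 lower in every one. Of all genes tested, 10.3% and 11.3% had groups apart in this way, so these 2 and 3 of 36 are not above that share. The count of 8 was 5 without AD-2, Sham-4, Sham-3 or Sham-1, where 1.56% to 3.78% of all genes were called. It was 14 without AD-3, where 12.1% of all genes were called and members that the filter had left out were also tested.

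**Figure D2:**
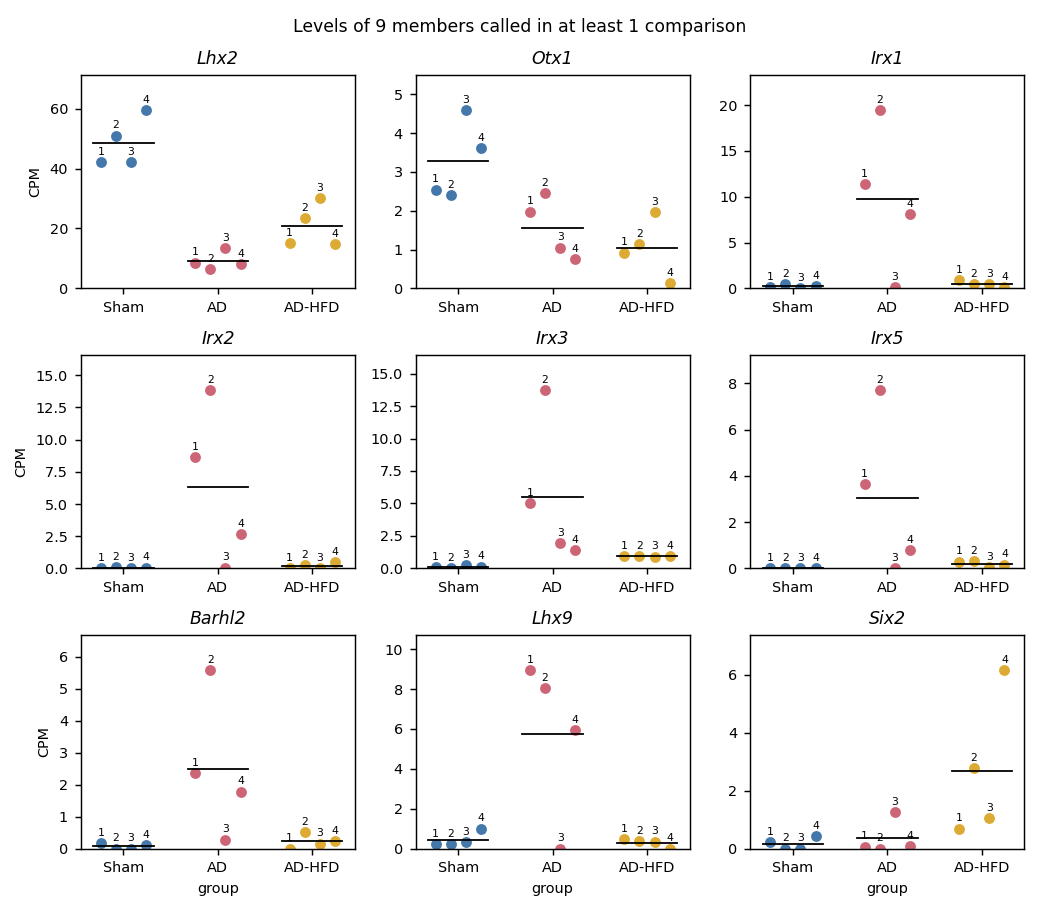
CPM of 9 of the 12 members called in at least 1 comparison, by group. Points are libraries, numbered by replicate, and lines are group means of 4. Lhx2 stands at 42.04 to 59.5 CPM in Sham and at 6.42 to 13.5 CPM in AD, while Irx1, Irx2 and Lhx9 are near 0 in AD-3.

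Of the 4 dorsal telencephalon factors, Lhx2 passed the test in AD against Sham and the other 3 did not. Lhx2, a LIM homeodomain factor that selects cortical identity, stood at 42.04, 50.99, 42.1 and 59.5 CPM in Sham-1 to Sham-4. It stood at 8.56, 6.42, 13.5 and 8.05 CPM in AD-1 to AD-4, and the AD-HFD libraries held 15.2, 23.5, 30.1 and 14.8 CPM in the same order. The 3 groups did not overlap: each AD library lay below each AD-HFD library, and each AD-HFD library below each Sham library. Lhx2 fell in AD (log2 -2.41 ± 0.288, adjusted p = 0.00162) and in AD-HFD against Sham (log2 -1.22 ± 0.275, adjusted p = 0.00841). Between AD-HFD and AD it differed by 1.19 ± 0.2797 and did not pass (adjusted p = 0.0605). Both calls against Sham held without any 1 library.

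Emx1, which marks the lineage of cortical excitatory neurons, stood at 25.9, 18.6, 21.8 and 28.3 CPM in Sham. In the AD libraries it was at 0.346, 0.204, 18.2 and 0 CPM, so that AD-3 lay close below the lowest Sham library while the other 3 were near 0. In AD-HFD it was at 4.44, 7.30, 17.6 and 3.59 CPM, with AD-HFD-3 the highest. The difference between AD and Sham did not pass (log2 -2.32 ± 1.13, adjusted p = 0.235), but without AD-3 it did (log2 -6.95, adjusted p = 0.000463). The same libraries stand apart by cortex markers, whose sum in AD-3 was 2053 CPM. Lhx2 in AD-3, at 13.5 CPM, was far below the lowest Sham value of 42.04 CPM, whereas Emx1 in the same library, at 18.2 CPM, was close to its lowest Sham value of 18.6 CPM.

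Emx2, which acts in patterning of cortical areas and hippocampus, stood at 10.2, 8.72, 9.39 and 11.2 CPM in Sham, 2.42, 5.19, 7.57 and 0.798 CPM in AD and 3.71, 11.4, 10.9 and 3.63 CPM in AD-HFD. AD-4 was lowest, and AD-HFD-2 and AD-HFD-3 were within the Sham range or just above it (log2 -1.29 ± 0.551, adjusted p = 0.179 for AD against Sham). Otx1, a factor of deep-layer cortical neurons, stood at 2.54, 2.40, 4.59 and 3.62 CPM in Sham, 1.97, 2.45, 1.05 and 0.762 CPM in AD and 0.920, 1.147, 1.97 and 0.133 CPM in AD-HFD. AD-HFD lay below Sham without overlap, and Otx1 fell in that comparison (log2 -1.64 ± 0.532, adjusted p = 0.0348). That call was lost without any 1 Sham library but Sham-2 or any 1 AD-HFD library but AD-HFD-3 (adjusted p 0.0591 to 0.0901, log2 -2.15 to -1.28 over the 12 fits that each leave out 1 library).

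None of the 6 ventral telencephalon factors passed the test in any of the 3 comparisons by edgeR, at an adjusted p under 0.05, and their levels varied widely among the AD libraries. Dlx1, a factor of inhibitory neurons from the ganglionic eminences, stood at 24.5, 34.1, 27.6 and 26.05 CPM in Sham, 4.99, 0.0875, 15.3 and 34.2 CPM in AD and 5.46, 10.04, 11.57 and 2.50 CPM in AD-HFD. AD-4 was at the top of the Sham range and AD-3 below it, and AD-2 held 3 counts. Its relatives Dlx2 and Dlx5, which act in the same cells, were also lowest in AD-2, at 0.0583 and 0.0583 CPM, and within the Sham range or above it in AD-4, at 4.83 and 5.22 CPM. In AD-HFD, Dlx1, Dlx2 and Dlx5 lay below every Sham library, with Dlx2 at 0.200 to 1.91 CPM against 3.39 to 4.47 CPM and Dlx5 at 0.965 to 2.25 against 4.69 to 7.83 CPM. They did not pass (log2 -1.92, -1.72 and -1.82, adjusted p = 0.112, 0.114 and 0.0668). Without AD-2, Dlx1 and Dlx5 passed (adjusted p = 0.0243 and 0.0145). All 3 passed when AD-HFD and Sham were fitted alone, a fit that called 33.6% of all genes.

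Lhx6, which directs the somatostatin and parvalbumin classes of cortical interneurons, stood at 4.32, 1.92, 4.05 and 4.45 CPM in Sham, 0.173, 0.0875, 2.25 and 2.07 CPM in AD and 1.97, 2.49, 3.53 and 2.66 CPM in AD-HFD. AD-1 and AD-2 were near 0 and the other libraries were not (log2 -1.70 ± 0.648, adjusted p = 0.136 for AD against Sham). Lhx8, a factor of cholinergic neurons of the basal forebrain, stood at 0, 0.160, 0.510 and 0 CPM in Sham, 0, 0, 0.615 and 5.73 CPM in AD and 7.56, 2.36, 0 and 3.33 CPM in AD-HFD. Nkx2-1, which specifies the medial ganglionic eminence and much of the hypothalamus, was at 0.292, 0.415, 1.02 and 0.201 CPM in Sham, 0.346, 0, 1.17 and 6.39 CPM in AD and 4.40, 1.18, 0.375 and 0.699 CPM in AD-HFD. AD-4 and AD-HFD-1 were the 2 highest libraries for each of these genes. Lhx8 did not pass in AD-HFD against Sham (log2 4.32 ± 1.58, adjusted p = 0.0503), but did without Sham-3, AD-HFD-3 or any 1 AD library (adjusted p 0.0143 to 0.0491). Hypothalamus markers (10 genes) summed to 1890.3 CPM in AD-4, 117 CPM in AD-3, 47.4 to 165 CPM in AD-HFD and 2.69 to 6.23 CPM in Sham, where Oxt, Sim1 and Otp had no counts. Their part in the Lhx8 and Nkx2-1 levels was not tested.

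**Figure D3:**
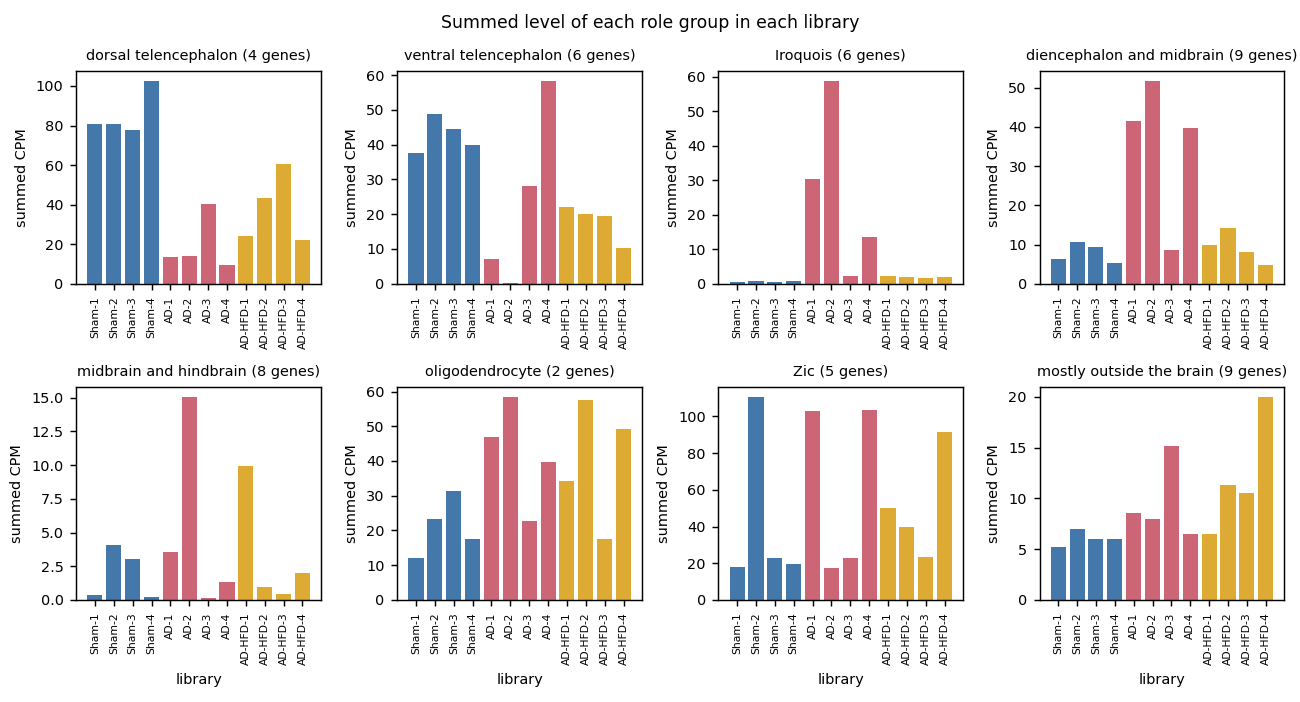
Summed CPM of the members of each of 8 role groups in each library (bars; blue Sham, red AD, yellow AD-HFD), each panel with its own axis from 0. The Iroquois sum is high in AD-1, AD-4 and AD-2, the ventral telencephalon sum is lowest in AD-2 and highest in AD-4, and the Zic sum is high in Sham-2, AD-1, AD-4 and AD-HFD-4.

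The Iroquois genes encode homeodomain factors of the caudal diencephalon and midbrain. Of the 6 members 4 were tested, and these 4 rose in AD against Sham, where 3.07% of all genes tested rose. Irx2 and Irx5 reached the count minimum only through their AD counts, so the 4 of 4 is no support for a rise of the family. Irx1 stood at 11.4, 19.5, 0.0923 and 8.09 CPM in AD, against 0.146, 0.447, 0 and 0.268 CPM in Sham and 0.855, 0.414, 0.469 and 0.0998 CPM in AD-HFD. Its neighbour Irx2 stood at 8.66, 13.8, 0.0615 and 2.68 CPM in AD against 0, 0.128, 0 and 0.0670 CPM in Sham and 0, 0.255, 0 and 0.499 CPM in AD-HFD. For both genes AD-2 was highest, AD-1 and AD-4 followed, and AD-3 lay within the Sham range. Irx1 (log2 5.47 ± 1.10, adjusted p = 0.0161) and Irx2 (log2 6.92 ± 1.24, adjusted p = 0.00503) rose. The call of Irx1 was lost without Sham-4, Sham-3 or Sham-1 (adjusted p 0.0531 to 0.0650), and that of Irx2 held without any 1 library (log2 6.22 to 7.94). By limma voom neither was called (adjusted p = 0.362 and 0.320).

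For Irx3 every AD and every AD-HFD library lay above every Sham library. It stood at 0.0876, 0, 0.272 and 0.134 CPM in Sham, 5.02, 13.7, 1.97 and 1.41 CPM in AD and 0.953, 0.956, 0.907 and 0.931 CPM in AD-HFD. AD-3, at 1.97 CPM, was above AD-4, and the AD-HFD libraries ran from 0.907 to 0.956 CPM. Irx3 rose in AD (log2 5.48 ± 0.844, adjusted p = 0.00373), a call that held without any 1 library (log2 4.52 to 6.17). It also rose in AD-HFD against Sham (log2 2.92 ± 0.981, adjusted p = 0.0359), but that call was lost without Sham-1, Sham-2, Sham-4, AD-HFD-1, AD-HFD-2 or AD-HFD-4 (adjusted p 0.0639 to 0.0994) and by limma voom (adjusted p = 0.0951).

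Irx5, the neighbour of Irx3, had no counts in Sham and stood at 3.64, 7.70, 0 and 0.798 CPM in AD and 0.296, 0.319, 0.0625 and 0.166 CPM in AD-HFD. It was at least 132-fold higher in AD and at least 8.73-fold higher in AD-HFD than in Sham, against a floor of 3 counts over the Sham group. AD-2 held 264 of the 391 AD counts, and without that library the bound for AD was 59.4-fold. The rise in AD passed (adjusted p = 0.0395) but was lost in each fit without 1 library except those without AD-3, AD-HFD-3 or AD-HFD-4 (adjusted p 0.0533 to 0.0924) and by limma voom (adjusted p = 0.250). The difference between AD-HFD and Sham did not pass (adjusted p = 0.268). The filter on low counts left Irx4 and Irx6 out of the test. Irx6 reached 3.09 CPM in AD-2 and 1.25 CPM in AD-1, against 0.136 to 0.351 CPM in Sham. In AD-4, at 0.290 CPM, it was within the Sham range. Irx4, with no counts in Sham, reached 0.992 CPM in AD-2. Outside AD, Irx4 and Irx6 had 8 and 37 counts, so they too are members only through their AD counts. Thalamus markers moved with these genes by library, but not in the same order: AD-2, highest for the Irx genes, had 649 CPM of them, less than AD-1 and AD-4. Their part in the Irx levels was not tested.

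Of the 9 other factors grouped here under diencephalon and midbrain 6 were tested. Some of the 9, such as Barhl1 and Nkx6-1, are described below by roles in other regions. In AD against Sham 3 rose, among them Barhl2 and Lhx9, where 3.07% of all genes tested rose. Barhl2, which acts in early diencephalon, stood at 2.36, 5.57, 0.277 and 1.78 CPM in AD, 0.175, 0, 0 and 0.1004 CPM in Sham and 0, 0.510, 0.156 and 0.233 CPM in AD-HFD. AD-3, the lowest AD library, was above every Sham library and within the AD-HFD range. Barhl2 rose in AD (log2 5.05 ± 0.968, adjusted p = 0.00796), a call that held without any 1 library (log2 4.29 to 6.13) and was lost by limma voom (adjusted p = 0.127). Its relative Barhl1, known from cerebellum and inner ear, was left out of the test by the filter on low counts and stood at 1.97, 4.93, 0.123 and 0.109 CPM in AD, 0.117, 0.224, 0 and 0 CPM in Sham and 0.197, 0, 0.156 and 0.0998 CPM in AD-HFD. Here AD-1 and AD-2 were high and AD-4 was not.

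Lhx9, expressed in developing thalamus, stood at 8.94, 8.05, 0 and 5.95 CPM in AD, 0.205, 0.224, 0.306 and 1.004 CPM in Sham and 0.460, 0.382, 0.344 and 0 CPM in AD-HFD. AD-1, AD-4 and AD-2 were alike, and AD-3 had no counts. Its rise in AD (log2 3.73 ± 0.977, adjusted p = 0.0443) held without AD-3, AD-HFD-3 or AD-HFD-4 and was lost without any other library (adjusted p 0.0554 to 0.126). It was also lost by limma voom (adjusted p = 0.650) and with the replicate block (adjusted p = 0.0806). The related Lhx1 and Lhx5, factors of Purkinje cells and of diencephalic neurons, were left out of the test by the same filter. Lhx1 stood at 4.12, 6.04, 0 and 1.995 CPM in AD, had no counts in AD-HFD and 2 counts in Sham against 381 in AD, a ratio of 193 (exact 95% counting interval 53.05 to 1599). Lhx5 stood at 3.71, 8.55, 0.123 and 4.21 CPM in AD and at no more than 0.167 CPM in Sham and 0.0986 CPM in AD-HFD. Outside AD, Lhx1, Lhx5 and Barhl1 had 2, 14 and 25 counts, so they are members only through their AD counts.

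Nkx6-1, a factor of ventral hindbrain and spinal cord, stood at 2.29, 5.16, 0.123 and 0.254 CPM in AD, 0.205, 0.288, 0.102 and 0.0670 CPM in Sham and 0.493, 0.542, 0.469 and 1.36 CPM in AD-HFD. AD-1 and AD-2 stood out, and AD-4, high for the thalamic Lhx9, did not (log2 3.54 ± 1.02, adjusted p = 0.0573; called without AD-3, AD-4, AD-HFD-3 or AD-HFD-4, adjusted p 0.0114 to 0.0483). Six3, needed for forebrain, eye and hypothalamus, stood at 2.67, 5.19, 2.15 and 16.04 CPM in AD, 0.497, 1.37, 2.48 and 0 CPM in Sham and 2.07, 2.87, 0.0625 and 0.366 CPM in AD-HFD. AD-4 was highest and no comparison passed (log2 2.58 ± 0.976, adjusted p = 0.133 for AD against Sham). Pax6, which acts in eye and in neural progenitors, stood at 10.4, 2.95, 5.72 and 8.96 CPM in AD, 5.08, 8.31, 6.53 and 3.95 CPM in Sham and 6.47, 9.63, 6.88 and 2.16 CPM in AD-HFD. These groups overlapped in each comparison (adjusted p of at least 0.800).

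Several midbrain and hindbrain factors were highest in AD-2 and low or without counts elsewhere. Pax7, a factor of the dorsal midbrain, stood at 2.16 CPM in AD-2 and 0.346 CPM in AD-1 and had no counts in the other 10 libraries. Pax3, its close relative, stood at 1.58 CPM in AD-2 and 0.658 CPM in AD-1, also with no counts elsewhere. Pax5 and Pax8, which act at the boundary of midbrain and hindbrain, had no counts in Sham and reached 2.04 and 2.36 CPM in AD-2, and Pax8 was also at 0.0625 to 0.765 CPM in AD-HFD. Pitx3, required by midbrain dopamine neurons, stood at 0.485, 1.84, 0.0923 and 0 CPM in AD, 0.263, 0, 0.340 and 0.0670 CPM in Sham and 0.197, 0.0956, 0.125 and 0.0665 CPM in AD-HFD, so that AD-2 was alone above 0.5 CPM. Pitx1, a factor of pituitary and hindlimb, reached 1.55 CPM in AD-2 and at most 0.131 CPM elsewhere. The filter on low counts left these 6 genes out of edgeR's test. Outside AD, Pax7, Pax3, Pax5, Pax8, Pitx3 and Pitx1 had 0, 0, 15, 46, 36 and 6 counts. They are members only through their AD counts, so their high levels in AD-2 are no separate result. In AD-2, 4 dopamine neuron markers summed to 644 CPM and 3 serotonin neuron markers to 285 CPM, against at most 103 and 5.19 CPM in the others. Fev, which defines serotonin neurons, had no counts in Sham or AD-HFD. The part of these markers in the result was not tested.

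Hoxd1, the Hox gene among the members, stood at 0.117, 0.0639, 0.408 and 0.0670 CPM in Sham, 0.554, 1.14, 0 and 0.472 CPM in AD and 0.197, 0.223, 0.0625 and 1.10 CPM in AD-HFD. AD-2 and AD-HFD-4 were highest and the groups overlapped (log2 1.74 ± 0.975, adjusted p = 0.299 for AD against Sham). Otx2, a factor of midbrain and of choroid plexus epithelium, stood at 0, 3.99, 2.25 and 0.0670 CPM in Sham, 1.32, 2.39, 0.0308 and 0.653 CPM in AD and 8.91, 0.191, 0 and 0.0998 CPM in AD-HFD. Sham-2, Sham-3 and AD-HFD-1 were high, as were their choroid plexus markers (9 genes), at 4752, 4614 and 10614 CPM. AD-HFD-2, with 562 CPM of these markers, was low in Otx2. AD-1, AD-4 and AD-2 also held Otx2 while their choroid plexus sum was 7.94 to 8.21 CPM. No comparison of Otx2 passed (adjusted p of at least 0.644).

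**Figure D4:**
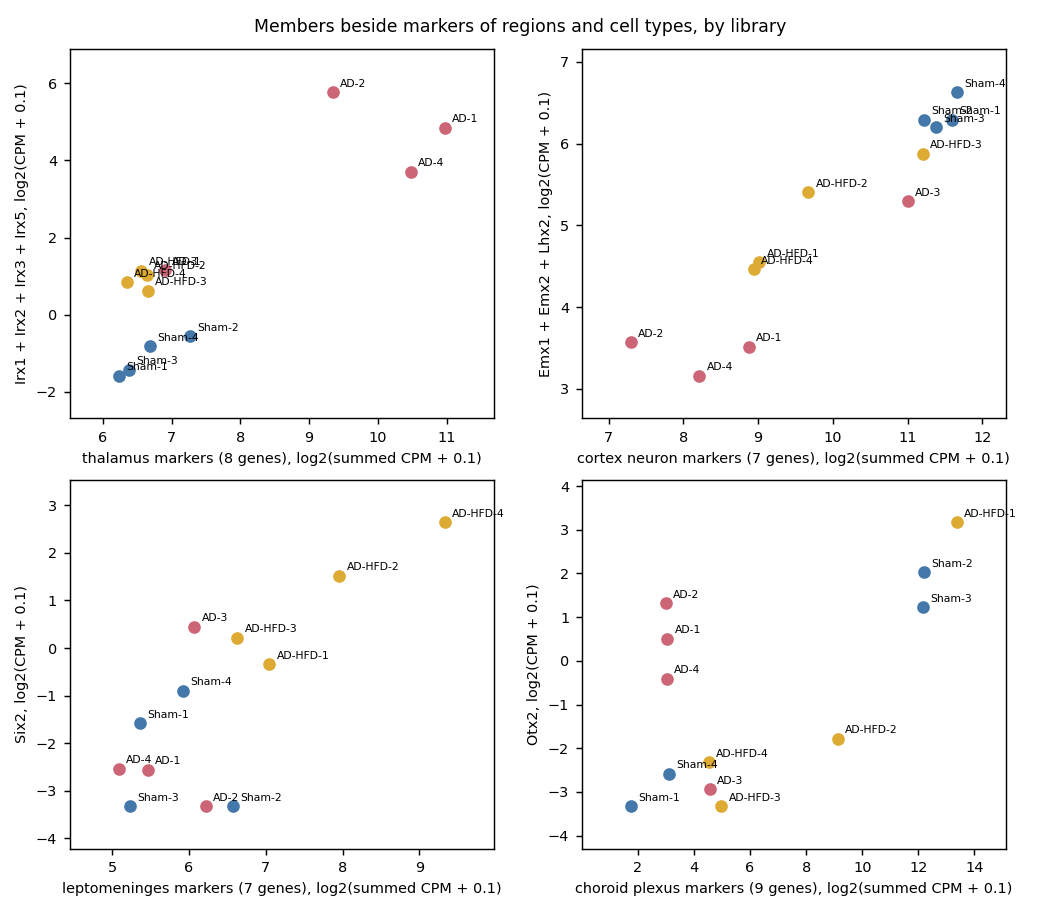
Members (vertical axes) against marker genes (horizontal axes) in the 12 libraries, both as log2 of summed CPM plus 0.1. Blue is Sham, red AD and yellow AD-HFD. In the Iroquois panel AD-1, AD-4 and AD-2 stand apart at the upper right. In the Otx2 panel the same 3 libraries are high in Otx2 at low choroid plexus levels, and in the panel of Six2 AD-HFD-4 is highest on both axes.

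Neither of the 2 oligodendrocyte factors passed the test in any comparison by edgeR at an adjusted p under 0.05. Nkx6-2, expressed in myelinating cells, stood at 10.3, 19.4, 25.8 and 14.8 CPM in Sham, 37.2, 48.8, 17.8 and 31.6 CPM in AD and 30.5, 48.1, 14.5 and 45.8 CPM in AD-HFD. AD-3 and AD-HFD-3, the libraries with most cortex markers in their groups, were inside the Sham range and the other 6 were above it. The differences from Sham were 0.95 ± 0.403 for AD (adjusted p = 0.178) and 0.98 ± 0.404 for AD-HFD (adjusted p = 0.0787; 0.0149 without AD-HFD-3). Nkx2-2, which acts in oligodendrocyte precursors, stood at 1.90, 3.83, 5.65 and 2.61 CPM in Sham, 9.66, 9.63, 5.02 and 7.95 CPM in AD and 3.91, 9.53, 3.06 and 3.46 CPM in AD-HFD (log2 1.21 ± 0.425, adjusted p = 0.109 for AD against Sham). Oligodendrocyte markers summed to 12006 CPM in AD-3 and 6632 CPM in AD-HFD-3, the lowest of their groups. Their part in the levels of Nkx6-2 and Nkx2-2 was not tested.

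The Zic genes, zinc finger factors of dorsal neural tube, cerebellum and meninges, varied within each group. Zic1 stood at 6.78, 58.6, 9.97 and 8.40 CPM in Sham, 63.6, 8.26, 11.05 and 65.6 CPM in AD and 21.6, 18.5, 12.5 and 25.3 CPM in AD-HFD. Sham-2, AD-1 and AD-4 were high and alike. Zic4, its neighbour, followed with 10.8, 10.7 and 13.02 CPM in these 3 libraries, and 1.28 to 5.72 CPM in AD-HFD. Zic2 stood at 4.24, 22.5, 6.36 and 6.16 CPM in Sham, 16.8, 3.65, 5.48 and 15.7 CPM in AD and 10.2, 13.1, 5.44 and 38.1 CPM in AD-HFD, with AD-HFD-4 highest. Zic5, which lies next to Zic2, was at 8.43 CPM in Sham-2 and 7.12 CPM in AD-HFD-4, but at 2.32 and 2.32 CPM in AD-1 and AD-4, close to the other 3 Sham libraries. None of these 4 genes passed in any comparison by edgeR (smallest adjusted p = 0.365). In AD-HFD-4 the leptomeninges markers (7 genes) summed to 643 CPM, against 33.8 to 249 CPM in the other libraries, and in Sham-2, AD-1 and AD-4 to 94.8, 44.2 and 33.8 CPM.

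AD-HFD was compared with AD, which holds the diet within the model. No tested member passed at an adjusted p under 0.05 by edgeR's quasi-likelihood test, against 0.0106% of all genes tested. By the same test 13 members and 30.5% of all genes had an unadjusted p under 0.05. DESeq2 called 13 members, a count given here without DESeq2's share of all genes. At an adjusted p under 0.1, 11 of 36 passed, 3 higher and 8 lower, against 18.2% of all genes (10.4% higher and 7.80% lower). The 8 lower in AD-HFD included Irx1, Irx2, Irx3, Irx5, Barhl2, Lhx9 and Six4, and the 3 higher included Six2 and Lhx2. They include the 8 members called in AD against Sham, which uses the same AD libraries. The groups did not overlap for Lhx2, which was higher in AD-HFD (as were 2.72% of all genes tested without overlap), and for Irx3, which was lower (2.74%). Irx2 differed by -5.06 ± 1.01, Irx1 by -4.40 ± 0.986, Barhl2 by -3.45 ± 0.797 and Irx3 by -2.57 ± 0.626 (log2, adjusted p = 0.0605 for each). Without AD-3 the count at an adjusted p under 0.05 was 17, with 5 higher and 12 lower, beside 30.3% of all genes, and without AD-HFD-3 it was 13 beside 27.6%. It was 1, Lhx5, without Sham-1, Sham-2 or Sham-3, where at most 0.0156% of all genes were called.

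**Figure D5:**
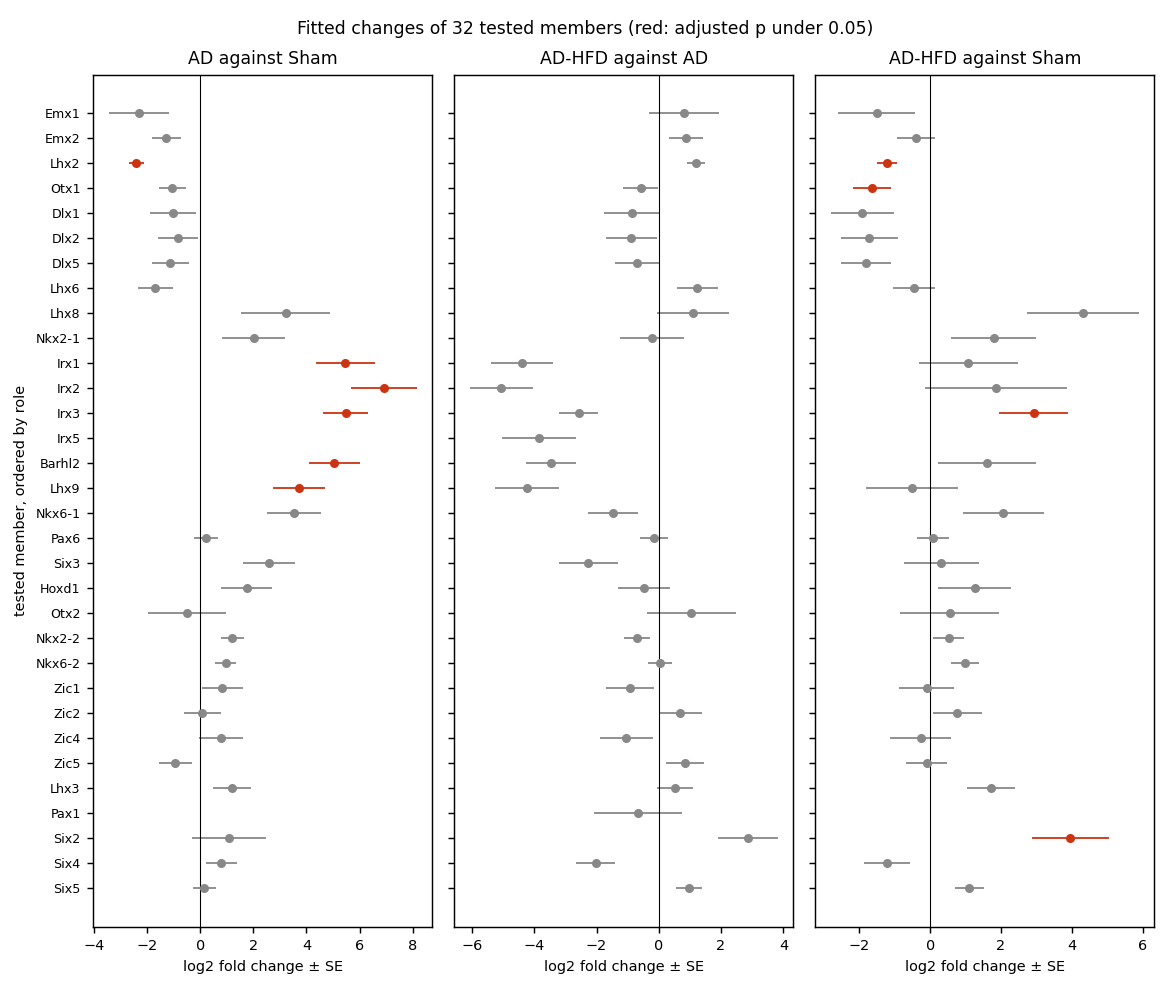
Fitted log2 fold changes ± SE of 32 of the 36 tested members in the 3 comparisons, ordered by role. Red points passed at an adjusted p under 0.05: 6 in AD against Sham, 0 in AD-HFD against AD and 4 in AD-HFD against Sham. Irx5 and Pax1 are not drawn where Sham had no counts.

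AD-HFD was also compared with Sham, which joins model and diet. By edgeR's quasi-likelihood test 6 of the 36 members were called, 3 higher (among them Six2 and Irx3) and 3 lower (among them Lhx2 and Otx1), against 32.7% of all genes tested (19.7% higher and 12.9% lower), so the members' share of 16.7% was below the background. By separation of the groups, 6 members lay above Sham in each AD-HFD library and 7 below, against 18.9% and 16.2% of all genes, shares close to the background. The 6 included Irx3, Irx5, Nkx6-1, Pax1 and Six2, and the 7 were Dlx1, Dlx2, Dlx5, Emx1, Lhx2, Otx1 and Six4. The count of 6 was 3 without Sham-1, Sham-4 or AD-HFD-2, where 18.2% to 23.2% of all genes were called. It was 2 without AD-HFD-4 (beside 20.5%) and 10 without AD-3 (beside 39.5%).

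Six2, a factor of kidney and craniofacial mesenchyme, stood at 0.690, 2.77, 1.06 and 6.15 CPM in AD-HFD, 0.234, 0, 0 and 0.435 CPM in Sham and 0.0693, 0, 1.26 and 0.0726 CPM in AD. AD-HFD-4 was highest and AD-3 stood out in its group. Six2 rose in AD-HFD against Sham (log2 3.95 ± 1.09, adjusted p = 0.0168), a call lost without Sham-3 or AD-HFD-4 (adjusted p 0.0501 to 0.0551, log2 3.14 to 4.92 over the 12 fits) and by the legacy quasi-likelihood method (adjusted p = 0.0542). Its neighbour Six3 did not share this pattern, at 0.366 CPM in AD-HFD-4, while Six5, a widely expressed relative, was highest there at 9.05 CPM. The values of Six5 were 1.81, 2.04, 2.59 and 1.94 CPM in Sham, 1.91, 1.93, 3.26 and 2.18 CPM in AD and 2.60, 4.30, 2.13 and 9.05 CPM in AD-HFD, and AD-HFD-3 lay inside the Sham range (log2 1.11 ± 0.420, adjusted p = 0.0609 for AD-HFD against Sham). Without AD-HFD-4 the difference was 0.52, and without AD-HFD-1 or AD-HFD-3 it passed (adjusted p 0.0166 to 0.0498). Six4 stood at 0.624, 0.797, 0.531 and 0.865 CPM in AD-HFD, 1.43, 2.33, 1.80 and 1.07 CPM in Sham and 5.16, 3.53, 0.246 and 2.61 CPM in AD, where AD-1, AD-4 and AD-2 were high. AD-HFD lay below Sham without overlap, but Six4 did not pass (log2 -1.23 ± 0.650, adjusted p = 0.159 for AD-HFD against Sham). Leptomeninges markers moved beside Six2, at 99.01 to 643 CPM in AD-HFD, 37.6 to 94.8 CPM in Sham and 33.8 to 74.6 CPM in AD. Of these 7 markers 5 rose in AD-HFD against Sham, beside 19.7% of all genes tested. Red blood cell markers (4 genes) summed to 253 to 4204 CPM in AD-HFD and 159 to 361 CPM in Sham. Their part in the Six2 level was not tested.

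Pax1, a factor of vertebral and thymic precursors, had no counts in Sham or in AD-1, AD-4 and AD-2. It stood at 8.22 CPM in AD-3. The AD-HFD libraries held 0.362, 0.637, 3.28 and 0.931 CPM, or at least 55.1-fold higher in AD-HFD than in Sham with Sham set at 3 counts, without passing the test (adjusted p = 0.129). AD-HFD-3 held 105 of the 164 AD-HFD counts, and without it the bound was 26.7-fold. Pax1 passed without AD-3 (adjusted p = 0.0207), and was also called by limma voom, with the replicate block and with AD-HFD and Sham fitted alone. AD-3 and AD-HFD-3 were its 2 highest libraries, and they are the ones richest in cortex markers within their groups. Lhx3 and Lhx4, factors of pituitary and motor neurons, and Pax4, a factor of pancreatic islets, were at low levels. Their highest values were 2.03 CPM for Lhx3 in AD-HFD-3, 1.14 CPM for Lhx4 in AD-2 and 0.578 CPM for Pax4 in Sham-3. Pax4, left out of the test by the filter on low counts, stood at 0.175 to 0.578 CPM in Sham. It reached at most 0.117 CPM in AD and 0.131 CPM in AD-HFD. Lhx3 did not pass in AD-HFD against Sham by edgeR (log2 1.71 ± 0.674, adjusted p = 0.0694). It passed without AD-HFD-1 (adjusted p = 0.0421), and without AD-HFD-3 the difference was log2 0.69.

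Regional transcription factors outside these families were counted for comparison, from a list of 60 genes in the table, of which 39 were tested. Shox2, Gbx2 and Tcf7l2 are also on the thalamus marker list and Neurod6 on the cortex list. In AD against Sham 7 rose and 3 fell, beside 3.07% and 3.16% of all genes tested. The risers included the thalamic factors Shox2 (6.65 ± 1.16), Gbx2 (6.46 ± 1.29) and Tcf7l2 (4.50 ± 0.872) (log2, adjusted p 0.00741 to 0.0145). The call of Shox2 held without any 1 library, and those of Gbx2 and Tcf7l2 were lost without Sham-1 or Sham-4 (adjusted p 0.0515 to 0.0585). The midbrain and hindbrain factor En2 also rose (log2 6.27 ± 1.46, adjusted p = 0.0206), at 12.2 CPM in AD-2 and 0.185 to 0.508 CPM in the other AD libraries. Without AD-2 it was log2 3.17 and did not pass (adjusted p = 0.0628), nor did it without any 1 Sham library. Those that fell were Pknox2, Neurod6 and Nr4a2, each with a call lost without Sham-1 (the first by that alone, adjusted p = 0.0547). In AD-HFD against AD 0 of 39 passed at an adjusted p under 0.05, beside 0.0106% of all genes tested. At under 0.1, 2 were higher and 10 lower, beside 10.4% and 7.80% of all genes tested. In AD-HFD against Sham 3 rose (Tal1, Gata2 and Phox2a) and 7 fell, beside 19.7% and 12.9% of all genes tested, so that the share of the 39 that rose was below the background. The call of Phox2a was lost without any 1 of 7 libraries. Of the 7 that fell, 5 belong to the 9 HOX cofactors, homeodomain proteins that bind DNA together with Hox proteins, among them Pknox2 (-1.85 ± 0.325), Pbx4 (-1.31 ± 0.312), Pbx2 (-0.61 ± 0.206) and Meis3 (-0.54 ± 0.191) (log2, adjusted p 0.00356 to 0.0469). The calls of Pknox2 and Pbx4 held without any 1 library, and those of Pbx2 and Meis3 were each lost without any 1 of 8 (adjusted p 0.0505 to 0.112). Pknox2 also fell in AD (log2 -1.69 ± 0.323, adjusted p = 0.0135), and its AD libraries ran from 18.98 to 28.6 CPM against 61.3 to 78.8 CPM in Sham. The median log2 fold change over these 39 genes was 0.31, -0.22 and -0.48 in the 3 comparisons, that of the 36 tested members 0.81, -0.54 and 0.66, and that of all genes tested 0.06, 0.04 and 0.03.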

How the data were processed

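Brain RNA of 12 samples, extracted with TRIzol, was made into libraries with a dual-mode mRNA kit of Yeasen, per the labels' protocols. Groups and numbers come from the library names. FastQC and Trimmomatic are named in the submitters' processing notes. The aligner, counter, strand setting, build and annotation are not given in the sources used here. The authors deposited raw counts per gene (31177 rows, 9127 of them unnamed new loci). Without a stated strand setting, reads from overlapping antisense genes cannot be told apart.

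The analysis used edgeR 4.0.16 in R 4.3.3: filterByExpr on the groups (18850 genes), TMM scaling and a non-legacy quasi-likelihood fit with 1 mean per group over all 12 libraries. Each log2 fold change divided by the root of its F statistic gives the SE. CPM use TMM-scaled library sizes. Groups with 0 counts are set at a floor of 3 counts, summed over the group, and groups with 1 to 3 counts get an exact 95% interval. No molecular identifiers are described, so both cover counting error only. The test was checked on simulated counts. Alternatives used DESeq2 1.42.0, limma 3.58.1, other scalings and filters, a replicate block and left-out libraries. Same-numbered libraries did not deviate together (0 of 12 pairs with a correlation over 0.1), and no library pair agreed within sampling noise.

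The members, lists, role groups and tests were chosen with earlier results of these data known. Values in every library were given for members called in a comparison and the 2 members of each family with the highest mean CPM, and further members with their values known. A few genes of the lists are counted but not reported here by name. Promoter sequences and gene order are RefSeq's for GRCr8, which may differ from the build used for counting.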

Additional observations from a re-analysis of the deposited data

Results flagged for a closer look

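Within groups of 4 libraries, 26 values stood farther from the other 3 than Dixon's 95% limit over 125 groups checked. Chance flags about 1 in 20 groups only where values are normally distributed, which CPM near 0 are not. A group with counts in 1 library alone is always flagged, so the 26 cannot be set against that share. In each case the value is set against the range of the other 3 libraries of the group. Sham-2 had Lhx1 at 0.0639 CPM against 0 CPM, Lhx6 at 1.92 CPM against 4.05 to 4.45 CPM, Zic1 at 58.6 CPM against 6.78 to 9.97 CPM, Zic2 at 22.5 CPM against 4.24 to 6.36 CPM, Zic4 at 10.8 CPM against 1.17 to 1.97 CPM and Zic5 at 8.43 CPM against 1.90 to 2.24 CPM. Sham-3 had Hoxd1 at 0.408 CPM against 0.0639 to 0.117 CPM and Pitx1 at 0.0680 CPM against 0 CPM, and Sham-4 had Lhx9 at 1.004 CPM against 0.205 to 0.306 CPM. AD-2 had Pax4 at 0.117 CPM against 0 CPM, Pax5 at 2.04 CPM against 0 to 0.208 CPM, Pax7 at 2.16 CPM against 0 to 0.346 CPM, Pax8 at 2.36 CPM against 0 CPM, Pitx1 at 1.55 CPM against 0 CPM and Zic5 at 0.759 CPM against 2.31 to 2.32 CPM. AD-3 had Emx1 at 18.2 CPM against 0 to 0.346 CPM, Pax1 at 8.22 CPM against 0 CPM and Six2 at 1.26 CPM against 0 to 0.0726 CPM, and AD-4 had Lhx8 at 5.73 CPM against 0 to 0.615 CPM. AD-HFD-1 had Otx2 at 8.91 CPM against 0 to 0.191 CPM and Pitx1 at 0.131 CPM against 0 CPM, AD-HFD-2 had Nkx2-2 at 9.53 CPM against 3.06 to 3.91 CPM and AD-HFD-3 had Irx6 at 0.281 CPM against 0 CPM. AD-HFD-4 had Hoxd1 at 1.10 CPM against 0.0625 to 0.223 CPM, Irx4 at 0.266 CPM against 0 CPM and Nkx6-1 at 1.36 CPM against 0.469 to 0.542 CPM. Of these, Lhx1 in Sham-2 and Pitx1 in Sham-3 rest on 2 counts.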

How the results depend on the processing

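In AD against Sham 8 members were called. The count was 14 by DESeq2, 3 by limma voom, 2 with a filter at 1 CPM in 4 libraries and 3 when the compared groups were fitted alone. Leaving out each library in turn gave 5 to 14, and AD-3 as the only AD library gave 3. In AD-HFD against AD 0 were called; DESeq2 called 13, the fit with no filter 1, a limit of 0.1 on the adjusted p 11, and leaving out each library 0 to 17. In AD-HFD against Sham 6 were called; the legacy quasi-likelihood method called 3, the fit of the compared groups alone 13, a limit of 0.1 on the adjusted p 11, the fit with AD-3 as the only AD library 15, and leaving out each library 2 to 10. Without Sham-2, Sham-3, AD-HFD-1 and AD-HFD-2, which leaves 2 libraries in Sham and AD-HFD, 0 were called in AD against Sham (4 of all genes) and 0 in AD-HFD against Sham (0 of all genes), with the 11 called differences reported here in the same direction (adjusted p 0.0865 to 0.40). The cause of these changes was not tested. Most counts by other methods, filters or fits stand without the share of all genes called, so they do not set members against the background. With AD-3 as the only AD library, assumed to vary like the other groups, and without counts there for Lhx9 and Irx5, whose fitted values then depend on the prior count, directions reversed for Irx1 -1.20, Lhx9 -6.76 and Nkx6-1 -0.44 in AD against Sham, and for Irx2 1.53, Irx1 2.27, Lhx9 6.23, Six4 1.495 and Irx5 5.74 in AD-HFD against AD (log2). Over 34 fold changes and their alternatives, 646 of 761 kept direction and side of the threshold, 59 lost the call, 48 gained it and 8 reversed. The 34 are those with an unadjusted p under 0.05 by edgeR, and 11 of them were called. An uncalled one that stayed uncalled counts as kept, so the 646 do not measure how firm the calls are. All 59 losses fell on the 11. In AD against Sham they ran from 1 of 23 alternatives for Lhx2 to 14 of 22 for Lhx9. With the number as a replicate block, 7, 0 and 6 members were called in the 3 comparisons, and the numbers are shared labels without a stated pairing. A gene with no counts in both groups of a fit has no value there, and the limit of 0.1 leaves fold changes as they are. Depth limits members under about 1 CPM, where 3 counts are 0.0875 to 0.109 CPM.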
